A study of Mus musculus with 12 samples.

Results

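Livers of C57BL/6J mice that had breathed 7% O2 for 24 h were compared 2 h after an injection of either PBS or dexamethasone (DEX), a drug that activates the glucocorticoid receptor. The members are 6 libraries of the 12 in the series: Hypoxia_DEX-1, -2 and -3, from mice given DEX intraperitoneally at 10 mg/kg, and Hypoxia_PBS-1, -2 and -3, from mice given PBS. They were chosen by their labels, not by any measured value. Both groups shared the strain and the 7% O2, to which the mice were returned after the injection, so the contrast holds DEX alone and every level below is that of a hypoxic liver. The other 6 libraries, Normoxia_DEX and Normoxia_PBS, came from C57BL/6J mice kept at 21% O2 with the same injections, and they enter where the response is compared with that in normoxia. The design text calls the 3 replicates of each group biological. The sources used here give neither the age and sex of the mice nor the hour of sampling. The series title names a change of glucocorticoid receptor function by hypoxia as the subject, and the question put here is what the receptor's ligand still did to liver mRNA in low oxygen.

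The glucocorticoid receptor is a nuclear receptor held in the cytoplasm by chaperones until it binds its ligand. It then enters the nucleus, binds palindromic DNA elements or other transcription factors, and raises or lowers the transcription of nearby genes. In hepatocytes it is known for turning on gluconeogenesis, amino acid breakdown and growth arrest genes, and in immune and endothelial cells for restraining NF-kB and AP-1, the factors behind cytokine and chemokine genes. Hypoxia-inducible factors (HIF) act in the same cells when oxygen is low.

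The libraries held 12464687 to 20246461 counts, and mitochondrial genes took 5.99% to 6.43% of them. Hepatocyte markers were abundant in all 6 libraries: the 15 markers summed to between 150860 and 173621 CPM (normalised counts for equal library size, scaled over all 12 libraries). Of these, Tat was called higher after DEX, as was Apoa1 (edgeR adjusted p = 0.03, from 0.000989 to 0.14 in the alternatives), and none was at 0. Erythroid markers summed to 472 to 553 CPM, and none of 6 passed the test. Beside that 0 by edgeR, 1 was lower at an unadjusted p under 0.05 and none passed with DESeq2.

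Before any result, 2 features of the libraries bear on all of them. Hypoxia_DEX-1 and Hypoxia_DEX-3 were nearly the same: the chi-square of their counts was 1.79 per gene, where the other 11 replicate pairs had 10.54 to 38.45, and 9.16% of genes were past the 5% limit of sampling noise, against 22.7% to 42.4%. They still differed by more than sampling noise, but the counts cannot show whether they came from 2 animals. They were kept as 2 samples because the design text calls the replicates biological. The value for both summed into 1 library is given beside the main counts. If they were not independent, the SD of the DEX livers and the adjusted p of the main counts would be too small. Hypoxia_DEX-2 and Hypoxia_PBS-1 lay apart from the rest of their groups in principal component scores. By chi-square, Hypoxia_DEX-2 differed from Hypoxia_DEX-1 and Hypoxia_DEX-3 by 14.64 and 15.42 per gene, within the range of the remaining replicate pairs. Hypoxia_PBS-1 differed from Hypoxia_PBS-2 and Hypoxia_PBS-3 by 38.45 and 21.41. On the first principal component of the 6 libraries, which held 67.2% of the variance, the score of Hypoxia_DEX-2 was 8.91, where the other DEX livers had 24.72 and 24.76, and that of Hypoxia_PBS-1 was -4.45, where the other PBS livers had -28.98 and -24.96. All DEX livers scored above all PBS livers. On the second component, with 22.1% of the variance, these 2 libraries took the extremes, -18.32 and 21.67. In each group, these are also the libraries nearest the other group on the first component, and below they are called doubted for their scores alone. Leaving both out thus widens the gap between the groups, and the close pair is then the only DEX arm. Counts without them are given for comparison and do not strengthen a result. Below, DEX-1 stands for Hypoxia_DEX-1, PBS-1 for Hypoxia_PBS-1 and so on, and the summed pair is DEX-1 with DEX-3.

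**Figure D1:**
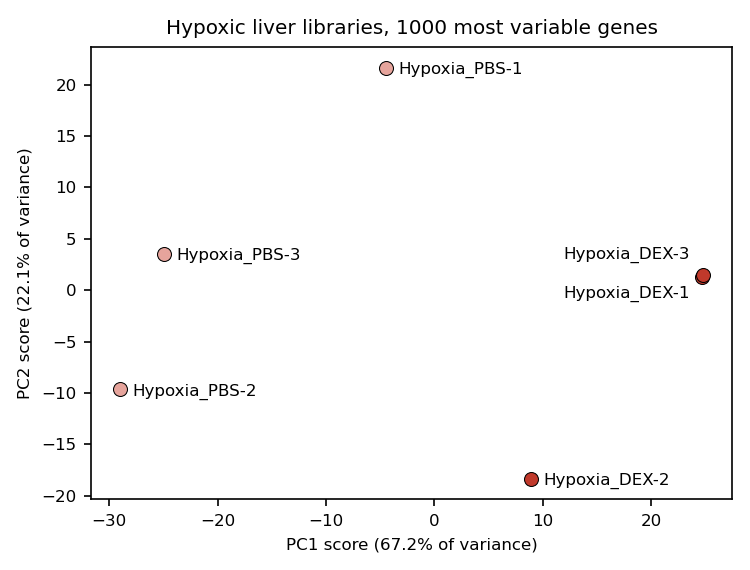
Scores of the 6 hypoxic liver libraries on the first principal component (x axis, 67.2% of the variance) and the second (y axis, 22.1%), from the 1000 most variable genes. DEX livers are dark red and PBS livers light red, and each point is 1 library. Hypoxia_DEX-1 and Hypoxia_DEX-3 nearly coincide, while Hypoxia_DEX-2 and Hypoxia_PBS-1 lie toward the middle of the first component.

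DEX changed the hypoxic liver in both directions within 2 h. Among the genes that passed, rises were led by Fam107a, Phf11c, Serpina3c, Pdk4 and Setdb2, each more than 10-fold, and falls by Neurl3, Il1b, Tnf, Fst and Rnf43. These rises kept their calls in every alternative run, but of these falls Rnf43 alone did. Gene groups with many rises were glucocorticoid receptor targets, amino acid breakdown, triglyceride synthesis and drug metabolism. Another was a joint list of catabolic genes and brakes on the growth kinase complex mTORC1. The cytokine genes Il1b, Tnf and Il6 fell, though none of these falls passed with Hypoxia_DEX-1 and -3 summed. Most chemokine genes lay lower without passing. In edgeR's quasi-likelihood test of 12183 genes, with p adjusted after Benjamini and Hochberg, 608 genes were higher and 576 lower after DEX at an adjusted p under 0.05, which is 9.72% of the genes tested (4.99% higher and 4.73% lower). Of these, 181 and 159 changed at least 2-fold. In all 1184 the 3 DEX livers did not overlap the 3 PBS livers, as was so for 31.9% of all genes tested. With Hypoxia_DEX-1 and -3 summed, 275 genes were higher and 175 lower, all 450 among the 1184. With Hypoxia_DEX-2 and Hypoxia_PBS-1 both left out, 1358 of the same 12183 genes were higher and 1736 lower, and no gene changed its direction in either. The counts of each list below stand against the 4.99% higher and 4.73% lower of all genes tested, and no list was tested as a set. List counts without these 2 libraries stand against those larger totals, not against 608 and 576. Without DEX-3 the counts were 265 and 160, without DEX-1 266 and 173, without PBS-3 294 and 207, and without PBS-1 936 and 1056.

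Among the genes that passed with a mean of at least 5 CPM in 1 group, the 12 largest rises and 12 largest falls were named by a fixed rule. Fam107a (ENSMUSG00000021750, chromosome 14, 8296274 to 8318023), an actin-associated gene known as a glucocorticoid target, stood at 19.6, 27.0 and 17.0 CPM in Hypoxia_DEX-1, -2 and -3 and at 0.761, 1.59 and 0.599 CPM in Hypoxia_PBS-1, -2 and -3. The lowest DEX liver was thus far above the highest PBS liver. Its log2 fold change was 4.42 (SE 0.34, edgeR adjusted p = 0.000992), a rise of 21.4-fold. The promoter of this gene is shown because it holds most of a receptor element. RefSeq's table of start sites gives it 3 windows of 300 bases, from 250 before to 50 after the start. The one below, chr14:8309730-8310029 on the minus strand of GRCm38.p6, has a match to AGAACA and TGT with 3 bases between them, the first 12 letters of the palindromic glucocorticoid response element, on its other strand at bases 135 to 146, in capitals. This shortened motif was searched after the values were seen, and 0.414% of the 32851 windows of all genes hold it.
Fam107a: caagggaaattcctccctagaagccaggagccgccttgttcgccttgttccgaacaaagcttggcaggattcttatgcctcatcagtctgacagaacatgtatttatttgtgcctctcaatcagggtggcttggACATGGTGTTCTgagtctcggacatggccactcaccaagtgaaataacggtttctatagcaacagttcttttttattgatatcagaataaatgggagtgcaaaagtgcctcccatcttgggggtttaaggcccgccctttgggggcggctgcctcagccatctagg

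Phf11c and Setdb2 are neighbours on the minus strand of chromosome 14 (59380833 to 59395381 and 59402009 to 59440884). Phf11c encodes a PHD finger protein and Setdb2 a histone methyltransferase. Phf11c stood at 184, 146 and 175 CPM in the DEX livers and 9.96, 7.52 and 9.52 CPM in the PBS livers, always given in the order 1, 2, 3. Setdb2 was at 204, 172 and 196 CPM and 16.3, 14.0 and 19.2 CPM. Both genes were low and even in all PBS livers and high in all DEX livers, and they had the smallest adjusted p of the comparison: 4.20 (SE 0.13, edgeR adjusted p = 1.76e-05) and 3.51 (SE 0.13, edgeR adjusted p = 2.72e-05) on the log2 scale. Phf11c belongs to a family of close copies, so its reads may be split among them.

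Pdk4, a kinase that restrains pyruvate dehydrogenase and so spares glucose, was at 166, 166 and 183 CPM after DEX and 21.9, 9.98 and 12.1 CPM after PBS. The 3 DEX livers lay close together, and the PBS livers varied 2-fold at a far lower level. The change was 3.53 on the log2 scale (SE 0.30, edgeR adjusted p = 0.0021). Serpina3c, a serine protease inhibitor of a multicopy family, rose from 0.678 ± 0.373 CPM (mean ± SD, n = 3, here and below) to 8.10 ± 0.0371 CPM, and Cyp2b10, a cytochrome P450 of drug metabolism, from 31.2 ± 11.6 to 209.7 ± 49.8 CPM. Log2 fold changes were 3.58 and 2.72 (edgeR adjusted p = 0.000763 and 0.00655). Mdm1, a centriole gene, rose by 2.89 ± 0.26 (SE, edgeR adjusted p = 0.000953). Adamts15, an extracellular protease, Itga2, an integrin subunit, and Arl4d, a small GTPase, had log2 fold changes of 3.26, 3.02 and 2.87 (edgeR adjusted p = 0.0151, 0.03 and 0.0179). Adamts15 lost the call without DEX-1, DEX-3, PBS-3 or the count filter or with the pair summed (adjusted p from 3.48e-09 to 0.0783 across the alternatives). The calls for Itga2 and Arl4d ended without DEX-1, DEX-3, PBS-2, PBS-3 or the count filter or with the pair summed (adjusted p from 2.14e-05 to 0.134 and 3.24e-12 to 0.0819).

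Among the falls, Rnf43 and Lgr5 belong to the Wnt pathway, where Rnf43 removes Wnt receptors and Lgr5 binds R-spondins. Rnf43 (ENSMUSG00000034177, chromosome 11, 87662722 to 87735539) was at 6.11, 5.09 and 4.95 CPM in the DEX livers and 31.2, 17.7 and 21.2 CPM in the PBS livers. The DEX livers were alike, and the lowest PBS liver was still over 2-fold above them. Its log2 fold change was -2.14 (SE 0.22, edgeR adjusted p = 0.0021). Lgr5 fell from 15.2 ± 3.47 to 4.40 ± 1.51 CPM (log2 change -1.84, edgeR adjusted p = 0.00853). Lhfpl2, a membrane protein gene, had -2.09 ± 0.21 (SE), and Cd83, a marker of activated dendritic cells, had -1.83 ± 0.20 (SE), with edgeR adjusted p of 0.00151 and 0.00197. Fign, a microtubule-severing enzyme gene, fell from 10.4 ± 2.27 to 2.87 ± 1.02 CPM (edgeR adjusted p = 0.00506). For Lgr5, the call did not hold without DEX-1 or DEX-3 or with the pair summed (adjusted p from 6.12e-09 to 0.0525).

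Neurl3, a ubiquitin ligase gene known to be raised by inflammation, had the largest fall among the genes that passed and met the rule. It was at 3.47, 3.77 and 2.34 CPM after DEX and 10.4, 32.2 and 30.7 CPM after PBS, with Hypoxia_PBS-1 well under the other PBS livers but above every DEX liver. The log2 fold change was -2.97 (SE 0.53, edgeR adjusted p = 0.0276). On the log2 scale, the changes of Fst, which encodes the activin antagonist follistatin, of Ralgds, an exchange factor, and of Asap3 and Sowahb were -2.18, -2.07, -1.81 and -1.69 (edgeR adjusted p = 0.0218, 0.0481, 0.00812 and 0.0205). Neurl3 no longer passed without DEX-1, DEX-2, DEX-3, PBS-2, PBS-3 or the count filter or with the pair summed (adjusted p from 4.77e-12 to 0.117). Fst lost the call without DEX-1, DEX-2, DEX-3, PBS-2 or PBS-3 or with the pair summed (adjusted p from 1.29e-05 to 0.104 across the alternatives). The call for Ralgds ended without DEX-1, DEX-2, DEX-3, PBS-2, PBS-3 or the count filter or with the pair summed or edgeR's own filter (adjusted p from 9.44e-06 to 0.169). For Asap3, the call did not hold without DEX-1 or DEX-3 (adjusted p from 1.1e-06 to 0.0553). Sowahb no longer passed without DEX-1, DEX-3 or PBS-3 or with the pair summed (adjusted p from 0.000106 to 0.0826).

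**Figure D2:**
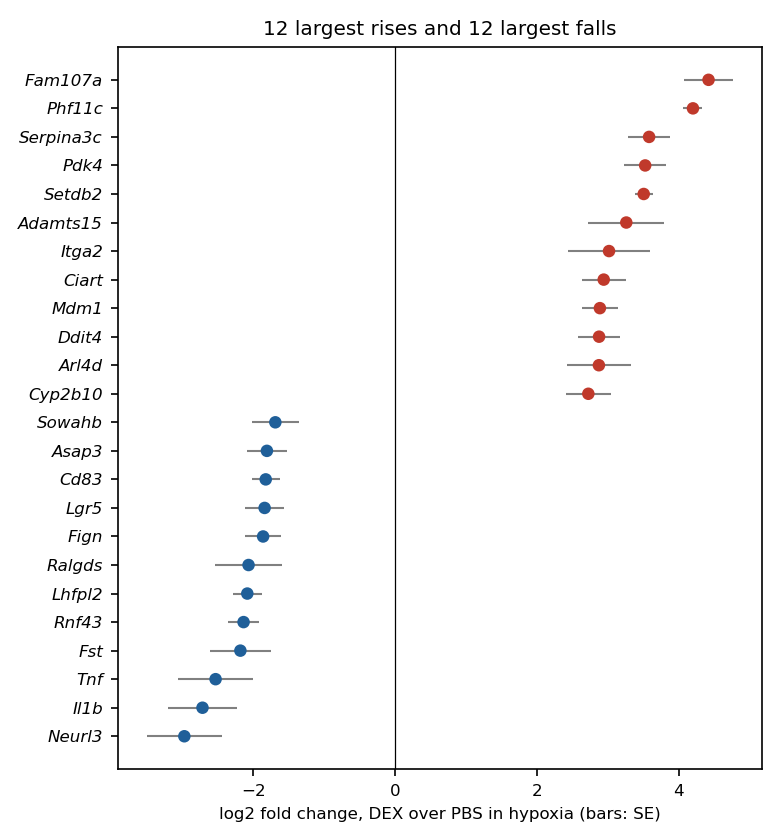
Log2 fold change of DEX over PBS in hypoxic liver (x axis) for the 12 largest rises (red) and 12 largest falls (blue) named by the fixed rule, with bars for the standard error. Rises ran from 2.72 for Cyp2b10 to 4.42 for Fam107a and falls from -1.69 for Sowahb to -2.97 for Neurl3.

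In the list of the receptor and its chaperones, the share that passed was near that of all genes tested (4.99% higher and 4.73% lower). Of 20 genes tested, Fkbp5 rose and Fkbp4 fell, at a list median of 0.043 against -0.0081 for all genes. The numbers were 1 and 0 with Hypoxia_DEX-1 and -3 summed and 2 and 5 with Hypoxia_DEX-2 and Hypoxia_PBS-1 left out. Nr3c1, which encodes the receptor, stood at 73.3, 70.7 and 70.4 CPM in the DEX livers and 77.0, 82.7 and 87.5 CPM in the PBS livers. The groups did not overlap, but the log2 difference of -0.23 (SE 0.073) did not pass (edgeR adjusted p = 0.0985). It passed without Hypoxia_PBS-1, alone or with Hypoxia_DEX-2 (adjusted p from 0.0163 to 0.297 across the alternatives). Fkbp5, a co-chaperone that lowers the receptor's affinity for its ligand and is among its best known targets, stood at 540.0, 548 and 513 CPM and 305, 249 and 181 CPM. DEX livers were even, and the PBS livers were spread over a wide range below them. The rise was 2.15-fold (log2 change 1.10, SE 0.17, edgeR adjusted p = 0.0096). Fkbp4, which acts in the opposite way on the receptor, fell by 0.46 (edgeR adjusted p = 0.0291). Fkbp4 lost the call without DEX-1, DEX-2, DEX-3, PBS-2 or PBS-3 or with the pair summed (adjusted p from 0.000357 to 0.13 across the alternatives).

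Glucocorticoid receptor targets rose in 14 of 38 cases and fell in none, at a list median of 0.66. Beside that 0 by edgeR, 1 was lower at an unadjusted p under 0.05 and none was lower with DESeq2. The 14 were Fam107a, Arrdc2, Tat, Pck1, Pdk4, Ddit4, Cdkn1a, Map3k6, Klf15, Fkbp5, Lpin1, Irs2, Errfi1 and Lcn2. With Hypoxia_DEX-1 and -3 summed 11 rose, and with Hypoxia_DEX-2 and Hypoxia_PBS-1 left out 17 rose and 2 fell. Tat (ENSMUSG00000001670, chromosome 8, 109990437 to 109999803), tyrosine aminotransferase, stood at 5208, 4985 and 5140.2 CPM in the DEX livers and 1271, 1639 and 953 CPM in the PBS livers. It rose to nearly the same level in each DEX liver, 3.91-fold above PBS (log2 change 1.97, SE 0.19, edgeR adjusted p = 0.00173). Cdkn1a, which encodes the cell cycle inhibitor p21, was at 316, 344 and 321 CPM against 112, 101 and 58.1 CPM. Its lowest PBS value was in Hypoxia_PBS-3, and all DEX livers were alike (log2 change 1.84, SE 0.24, edgeR adjusted p = 0.00634). Arrdc2, an arrestin domain gene, rose by 1.87 ± 0.18 (SE), and Errfi1, a feedback inhibitor of the EGF receptor, by 0.63 ± 0.12 (SE), with edgeR adjusted p of 0.00151 and 0.0184. Lcn2, the iron-scavenging acute phase protein lipocalin 2, was at 910.1, 1512 and 932 CPM and 328, 565 and 438 CPM, with the largest value in Hypoxia_DEX-2 (log2 change 1.32, SE 0.29, edgeR adjusted p = 0.0409). The call for Errfi1 ended without DEX-1, DEX-2, DEX-3 or PBS-3 or with the pair summed (adjusted p from 3.78e-05 to 0.0782). For Lcn2, the call did not hold without any 1 library or the count filter or with the pair summed or all 12 libraries fitted (adjusted p from 4.57e-06 to 0.147). Irs2 no longer passed without DEX-1, DEX-3 or PBS-3 or with the pair summed or all 12 libraries fitted (adjusted p from 0.00016 to 0.0908).

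Several targets that are standard readouts of the receptor did not pass in hypoxia. Tsc22d3, which encodes the anti-inflammatory protein GILZ, was at 60.2, 56.5 and 56.5 CPM in the DEX livers and 38.5, 44.0 and 25.1 CPM in the PBS livers. The DEX livers lay above the PBS livers, but the spread after PBS was wide (log2 difference 0.67, SE 0.19, edgeR adjusted p = 0.0812). It passed with DESeq2, with all 12 libraries in the fit, and without Hypoxia_PBS-2 or Hypoxia_PBS-3 (adjusted p from 0.0105 to 0.242 across the alternatives). Dusp1, a phosphatase that silences MAP kinases, was at 37.4, 43.4 and 33.6 CPM and 21.97, 30.8 and 23.6 CPM. Its difference of 0.56 (SE 0.16) missed the threshold (edgeR adjusted p = 0.0643), and passed with DESeq2, without the count filter and without Hypoxia_PBS-2 (adjusted p from 0.00569 to 0.206 across the alternatives). Zbtb16, a transcriptional repressor, ranged over 4-fold among the PBS livers, at 44.8, 77.7 and 18.4 CPM, against 133, 121 and 126 CPM after DEX. Its difference of 1.41 (SE 0.52, edgeR adjusted p = 0.179) passed only with all 12 libraries in the fit (adjusted p from 0.0389 to 0.406 across the alternatives). Sgk1, a kinase that raises sodium transport, stood at 60.3, 73.3 and 58.5 CPM after DEX and 62.6, 67.5 and 61.9 CPM after PBS. These groups overlapped, and the difference was -0.019 (SE 0.10, edgeR adjusted p = 0.928). The clock gene Per1, the mRNA decay factor Zfp36, the transcription factor Klf9 and the metallothioneins Mt1 and Mt2 had log2 differences of -0.077, -0.35, 0.54, 0.72 and 0.69 (edgeR adjusted p = 0.696, 0.129, 0.185, 0.106 and 0.125). Of these, Klf9, Mt1 and Mt2 passed in some alternatives (adjusted p from 0.0358 to 0.491, 0.00123 to 0.325 and 0.0036 to 0.36): Klf9 and Mt1 did so with 1 library left out, Klf9 without Hypoxia_PBS-1 and Mt1 without Hypoxia_PBS-2.

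Sgk1 holds the full receptor element. One of its 6 RefSeq windows, chr10:21993640-21993939 on the plus strand of GRCm38.p6, matches AGAACA and TGTTCT with 3 bases between them at bases 62 to 76, in capitals. Only 3 of the 32851 windows of all genes (0.00913%) matched these letters on either strand. No other of the 128 named genes with a window did.
Sgk1: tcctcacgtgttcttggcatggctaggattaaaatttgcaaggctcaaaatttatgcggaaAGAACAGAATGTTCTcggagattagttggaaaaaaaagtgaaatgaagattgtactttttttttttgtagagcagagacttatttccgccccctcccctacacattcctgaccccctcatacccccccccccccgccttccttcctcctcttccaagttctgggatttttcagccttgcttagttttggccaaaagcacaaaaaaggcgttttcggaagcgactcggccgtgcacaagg

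**Figure D3:**
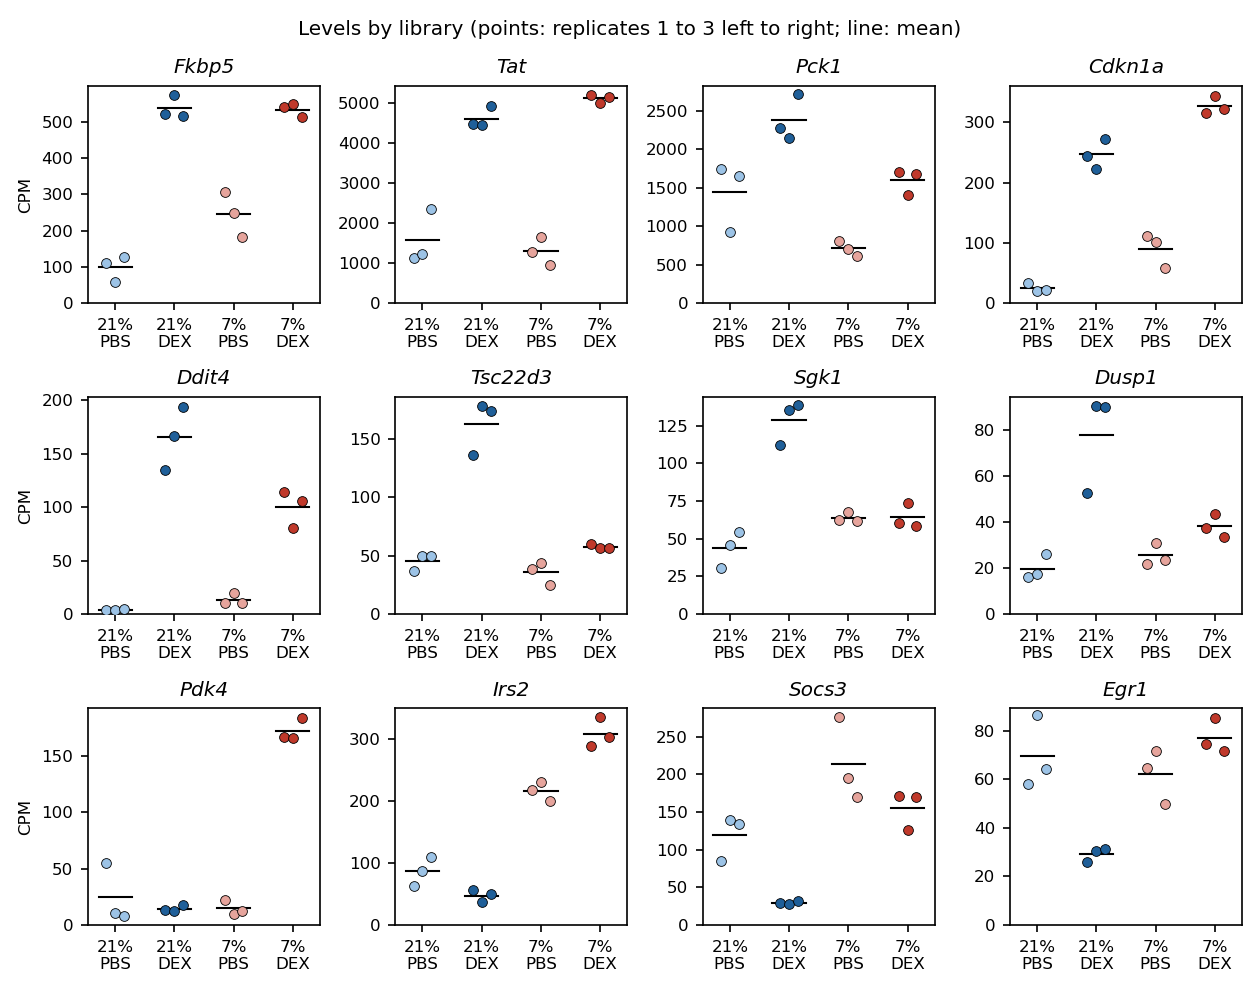
CPM of 12 genes (y axis, from 0) by group (x axis), with each point 1 library, replicates 1 to 3 from left to right, and a line at the group mean. Light blue is 21% O2 with PBS, dark blue 21% O2 with DEX, light red 7% O2 with PBS and dark red 7% O2 with DEX. Fkbp5, Tat, Pck1, Cdkn1a and Ddit4 were higher with DEX at both oxygen levels, Sgk1 rose with DEX at 21% O2 while its 7% O2 groups overlap, and Pdk4 was highest in the livers with both DEX and 7% O2.

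Amino acid breakdown and the urea cycle rose in 14 of 37 cases and fell in 1, at a list median of 0.32. With Hypoxia_DEX-1 and -3 summed the numbers were 6 and 1, and with Hypoxia_DEX-2 and Hypoxia_PBS-1 left out 19 and 2. The rises covered transport into the cell and the mitochondrion as well as the enzymes. Slc7a2, a carrier of arginine and lysine, was at 873, 764 and 879 CPM in the DEX livers and 401, 416 and 400.4 CPM in the PBS livers. Both groups were tight and well apart (log2 change 1.03, SE 0.08, edgeR adjusted p = 0.000654). Slc25a15, the mitochondrial ornithine carrier of the urea cycle, was at 792, 643 and 804 CPM and 359, 338 and 283 CPM, a rise of 2.25-fold (edgeR adjusted p = 0.0016). Aass, the first enzyme of lysine breakdown, rose from 378 ± 50.1 to 679 ± 38.4 CPM (edgeR adjusted p = 0.00397). Chosen after their values were seen, the serine dehydratase gene Sds rose by 1.60 ± 0.21 (SE) and the amino acid transporter gene Slc38a2 by 1.14 ± 0.21 (SE), and Nags, which makes the activator of the urea cycle's first step, fell by 0.49. The urea cycle enzymes Ass1 and Asl rose by 0.58 and 0.50.

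Gluconeogenesis and its regulators rose in 5 of 25 cases, Pck1, Foxo1, Foxo3, Ppargc1a and Hnf4a, and fell in 1, the glucagon receptor gene Gcgr. Pck1 (ENSMUSG00000027513, chromosome 2, 173153048 to 173159273), which encodes the first committed enzyme of gluconeogenesis, PEPCK, was at 1698, 1400.0 and 1684 CPM in the DEX livers and 809.9, 703 and 615 CPM in the PBS livers. All DEX livers were above all PBS livers by a wide margin (2.22-fold, log2 change 1.15, SE 0.12, edgeR adjusted p = 0.00173). G6pc, the enzyme that releases free glucose, stood at 192, 52.9 and 198 CPM and 158, 55.2 and 63.9 CPM. Here the groups overlapped, with Hypoxia_DEX-2 at the level of the lower PBS livers (log2 difference 0.66, SE 0.68, edgeR adjusted p = 0.611). Igfbp1, an insulin-suppressed binding protein gene, had a log2 difference of 0.74 (SE 0.50, edgeR adjusted p = 0.43), and the hepatokine gene Fgf21 was too low to be tested. With Hypoxia_DEX-2 and Hypoxia_PBS-1 both left out G6pc passed (adjusted p from 5.68e-06 to 0.84 across the alternatives). The factor Foxo1, which drives both enzymes' genes when insulin is low, rose by 1.28 ± 0.20 (SE), Foxo3 by 0.91 ± 0.17 and the coactivator Ppargc1a by 0.66 ± 0.17 (edgeR adjusted p = 0.0116, 0.0213 and 0.0469). Summing the pair left 2 members higher and none lower, and with the 2 doubted libraries, Hypoxia_DEX-2 and Hypoxia_PBS-1, left out 12 rose and 3 fell. Foxo1 lost the call without DEX-3 or the count filter (adjusted p from 2.13e-08 to 0.0658 across the alternatives). The call for Foxo3 ended without DEX-1, DEX-3, PBS-2, PBS-3 or the count filter or with the pair summed (adjusted p from 1.22e-05 to 0.0927). For Ppargc1a, the call did not hold without DEX-1, DEX-3, PBS-2 or PBS-3 or with the pair summed (adjusted p from 0.00046 to 0.181).

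Among 28 brakes on mTORC1 and catabolic genes 10 rose and 2 fell, at a median of 0.48. With the pair summed the numbers were 7 and 0, and with the other 2 libraries left out 14 and 7. Ddit4 (ENSMUSG00000020108, chromosome 10, 59949669 to 59951834), also called REDD1, inhibits mTORC1 and is known to respond to both glucocorticoids and hypoxia. It was at 114, 80.4 and 106 CPM in the DEX livers and 10.5, 19.6 and 10.5 CPM in the PBS livers. Hypoxia_DEX-2 was the lowest DEX liver and Hypoxia_PBS-2 the highest PBS liver, still 4-fold apart. The rise was 7.34-fold (log2 change 2.88, SE 0.29, edgeR adjusted p = 0.00389). Sesn1, a leucine sensor of the sestrin family, rose from 12.4 ± 2.37 to 31.5 ± 2.11 CPM (edgeR adjusted p = 0.00173), while Sesn3 fell by 0.45. Map1lc3b, which encodes the autophagosome protein LC3B, rose by 0.69 ± 0.094 (SE, edgeR adjusted p = 0.0046). Chosen after its values were seen, Klf15, a glucocorticoid-induced factor for amino acid breakdown, rose by 1.24 ± 0.18 (SE). The arrestin genes went apart, Arrdc2 up and Arrdc4 down by 1.36.

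In lipogenesis and triglyceride synthesis 7 of 25 rose and none fell by edgeR, beside 2 lower at an unadjusted p under 0.05 and 1 lower with DESeq2, at a list median of 0.097. The summed pair gave 4 rises, and with both doubted libraries left out 9 rose and 1 fell. Lpin1, a phosphatidate phosphatase that makes diacylglycerol for triglycerides, was at 1579, 1340.1 and 1539 CPM in the DEX livers and 317, 234 and 117 CPM in the PBS livers. Hypoxia_PBS-3 was the lowest, and the DEX livers were at least 4-fold above each PBS liver (log2 change 2.72, SE 0.37, edgeR adjusted p = 0.0108). Thrsp, a lipogenic regulator, was at 972, 927 and 978 CPM and 398, 400.5 and 314 CPM, a rise of 2.55-fold (edgeR adjusted p = 0.000656). Acacb, the acetyl-CoA carboxylase that holds back mitochondrial fatty acid import, rose from 78.3 ± 8.85 to 165 ± 9.18 CPM (edgeR adjusted p = 0.00107). Pnpla3, a lipid droplet protein gene, rose by 1.495 from below 1 CPM (edgeR adjusted p = 0.0166). It was at 2.10, 1.84 and 1.54 CPM after DEX and 0.586, 0.506 and 0.799 CPM after PBS. It thus passed the filter of 1 CPM only through the DEX livers, and its call is not independent of that filter. Lpin1 no longer passed without PBS-2 (adjusted p from 4.2e-19 to 0.0601). Pnpla3 lost the call without DEX-1 (adjusted p from 0.00383 to 0.0807 across the alternatives).

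Of 32 genes for fatty acid oxidation and ketogenesis 3 rose, beside 4.99% of all genes tested. The number was the same with the pair summed, and 10 rose without both doubted libraries. The 3 were Pdk4, the carnitine carrier gene Slc22a5 and the mitochondrial carrier gene Ucp2. None fell by edgeR, at an unadjusted p under 0.05 or with DESeq2. Slc22a5 was at 70.8, 98.9 and 73.4 CPM after DEX and 37.0, 33.3 and 32.2 CPM after PBS, with the highest value in Hypoxia_DEX-2. Its log2 fold change was 1.23 (SE 0.14, edgeR adjusted p = 0.0029), and that of Ucp2 was 1.29 (SE 0.14, edgeR adjusted p = 0.00181). Cpt1a, the gate of mitochondrial fatty acid import, was at 758, 740.2 and 768 CPM and 790.1, 475 and 569.7 CPM. The PBS livers spread around the DEX value (log2 difference 0.29, edgeR adjusted p = 0.339), and it passed without Hypoxia_PBS-1, alone or with Hypoxia_DEX-2 (adjusted p from 0.00479 to 0.629 across the alternatives). Angptl4, an inhibitor of lipoprotein lipase, had 0.12 (edgeR adjusted p = 0.388).

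Cholesterol synthesis had a list median of -1.06, yet none of its 24 genes passed by edgeR, at an unadjusted p under 0.05 or with DESeq2. The groups overlapped in the genes named. Mvd, the last step toward isopentenyl diphosphate, was at 3.35, 13.9 and 5.05 CPM in the DEX livers and 5.27, 65.7 and 16.6 CPM in the PBS livers. The highest DEX value, in Hypoxia_DEX-2, lay above the lowest PBS value, in Hypoxia_PBS-1, and Hypoxia_PBS-2 was far above all others (log2 difference -2.04, SE 1.14, edgeR adjusted p = 0.347). Sc5d had -0.93 (SE 0.38, edgeR adjusted p = 0.212). The summed level of the 24 genes was 2137, 3599 and 2183 CPM after DEX and 1901, 6497 and 2811 CPM after PBS, so the groups overlapped.

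Drug metabolism rose in 8 of 39 cases and fell in 2, Cyp2b9 and Cyp2c38, with 5 and 1 when the pair was summed and 10 and 8 without both doubted libraries. Alas1, the rate-limiting enzyme of heme synthesis on which cytochromes P450 depend, was at 1332, 1386 and 1328 CPM in the DEX livers and 305, 384 and 358 CPM in the PBS livers. Both groups were even and nearly 4-fold apart (log2 change 1.93, SE 0.10, edgeR adjusted p = 0.000158). Por, which passes electrons to all microsomal P450 enzymes, was at 1015, 1015 and 1033 CPM and 609.8, 442 and 448 CPM and rose 2.02-fold (edgeR adjusted p = 0.00331). The pregnane X receptor gene Nr1i2 rose by 0.68 ± 0.093 (SE) and Fmo5, a flavin monooxygenase, by 0.78 ± 0.094 (SE), with edgeR adjusted p of 0.00475 and 0.00297. Within the Cyp2b family Cyp2b10 rose and Cyp2b9 fell by 0.58. Reads of such close copies can be shared, so their split is uncertain.

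Among bile acid genes 3 of 26 were higher and 2 lower, beside 4.99% and 4.73% of all genes tested. The numbers were 2 and 1 with the pair summed and 5 and 6 without both doubted libraries. Amacr, a racemase of the side-chain pathway, was at 318, 323 and 309 CPM after DEX and 97.1, 83.8 and 84.2 CPM after PBS. Its groups were tight and over 3-fold apart (log2 change 1.82, SE 0.083, edgeR adjusted p = 6.96e-05). The canalicular exporter Abcc2 rose by 0.59 and Cyp27a1 by 0.45, while Fgfr4 fell by 0.45 and its partner Klb by 0.30, the co-receptors for the gut signal FGF15 (edgeR adjusted p = 0.00474, 0.0358, 0.00632 and 0.0468). Cyp7a1, the rate-limiting enzyme of bile acid synthesis, was at 174, 132 and 173 CPM and 170.5, 169 and 79.1 CPM. The groups overlapped (log2 difference 0.17, SE 0.31, edgeR adjusted p = 0.772). The call for Cyp27a1 ended without DEX-1, DEX-2, DEX-3 or PBS-3 or with the pair summed (adjusted p from 0.000544 to 0.136).

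Of 26 cytokine, NF-kB and adhesion genes 3 fell, Il1b, Tnf and Il6, and 3 rose, Il1r1, Il6ra and Tnfrsf1b, at a list median of -1.11. The same number rose and none fell with the pair summed, and with Hypoxia_DEX-2 and Hypoxia_PBS-1 left out 3 rose and 20 fell. Il1b (ENSMUSG00000027398, chromosome 2, 129364570 to 129371139), which encodes interleukin 1 beta, was at 4.25, 8.68 and 3.78 CPM in the DEX livers and 26.4, 53.9 and 24.9 CPM in the PBS livers. The highest DEX liver was under the lowest PBS liver by about 3-fold (log2 change -2.72, SE 0.49, edgeR adjusted p = 0.03). Tnf, tumour necrosis factor, was at 0.599, 2.37 and 0.692 CPM and 4.92, 9.18 and 5.19 CPM, with Hypoxia_DEX-2 above the other DEX livers (log2 change -2.53, SE 0.53, edgeR adjusted p = 0.0326). Il6, interleukin 6, was low throughout, at 0.479, 0.702 and 1.01 CPM and 2.52, 3.54 and 1.66 CPM (log2 change -1.80, SE 0.38, edgeR adjusted p = 0.0246). Its DEX livers were at about 1 CPM or less, so it passed the count filter mainly through the PBS livers. For Il1b, the call did not hold without DEX-1, DEX-3, PBS-3, the count filter or both DEX-2 and PBS-1 or with the pair summed (adjusted p from 2.94e-11 to 0.121). Tnf no longer passed without DEX-1, DEX-3, PBS-2, PBS-3 or the count filter or with the pair summed (adjusted p from 1.49e-05 to 0.135). Il6 lost the call without DEX-1, DEX-2, DEX-3 or PBS-2 or with the pair summed (adjusted p from 0.000273 to 0.105 across the alternatives).

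On the receptor side, Il1r1, the signalling receptor for interleukin 1, was at 488, 498 and 490.4 CPM after DEX and 122, 215 and 192 CPM after PBS. The DEX livers were nearly equal, and each was more than 2-fold above the highest PBS liver (log2 change 1.46, SE 0.20, edgeR adjusted p = 0.00731). Il6ra, the interleukin 6 receptor, was at 236, 235 and 233 CPM and 123, 140.0 and 92.9 CPM, again with equal DEX livers (log2 change 0.97, SE 0.14, edgeR adjusted p = 0.0057). Tnfrsf1b, the second receptor for tumour necrosis factor, rose from 27.7 ± 3.87 to 48.8 ± 1.12 CPM (edgeR adjusted p = 0.00419). These 3 rises passed in every alternative run, with Hypoxia_DEX-1 and -3 summed and with each library left out.

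The promoters of Il6 and Neurl3 are shown for the NF-kB motif, GGGA and CC with 4 bases between them, in capitals. Each holds 2 matches that overlap, 1 on each strand, and 20.7% of all windows of this length hold at least 1. Il6 is on the plus strand at chr5:30012864-30013163 and Neurl3 on the minus strand at chr1:36273376-36273675 of GRCm38.p6. Among the named genes with a window the motif was found in 14 of 30 that fell, 14 of 51 that rose and 16 of 47 that were not called. A gene counted if any of its windows held the motif, so these counts are not on the scale of the share of single windows. No share by gene over all genes is given, and many named genes came from chosen lists. Whether the motif is more common among falls was thus not tested.
Il6: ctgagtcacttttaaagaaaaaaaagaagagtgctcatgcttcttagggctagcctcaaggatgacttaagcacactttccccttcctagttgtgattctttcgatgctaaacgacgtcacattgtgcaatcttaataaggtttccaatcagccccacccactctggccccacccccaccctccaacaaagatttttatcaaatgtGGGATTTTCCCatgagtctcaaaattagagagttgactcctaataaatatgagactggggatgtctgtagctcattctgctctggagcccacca
Neurl3: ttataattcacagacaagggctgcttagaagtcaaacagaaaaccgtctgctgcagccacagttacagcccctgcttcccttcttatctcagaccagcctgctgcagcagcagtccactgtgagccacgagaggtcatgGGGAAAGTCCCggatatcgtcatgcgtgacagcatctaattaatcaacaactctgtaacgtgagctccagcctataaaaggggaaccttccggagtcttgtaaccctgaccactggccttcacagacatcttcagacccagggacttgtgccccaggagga

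Chemokine genes fell in 2 of 18 cases, Cxcl16 and Cxcl12, beside 4.73% of all genes tested, at a list median of -1.01. None rose by edgeR, at an unadjusted p under 0.05 or with DESeq2. With the pair summed none fell, and with Hypoxia_DEX-2 and Hypoxia_PBS-1 left out 10 fell. Cxcl16 was at 4.49, 5.61 and 4.63 CPM in the DEX livers and 7.09, 10.8 and 11.4 CPM in the PBS livers (log2 change -1.02, SE 0.21, edgeR adjusted p = 0.0229). Cxcl12, which holds stem and immune cells in place, fell by 0.38 (edgeR adjusted p = 0.0212). Larger differences did not pass. Chosen after its values were seen, Ccl2, the monocyte chemoattractant, was at 1.38, 8.77 and 1.01 CPM after DEX and 16.3, 55.4 and 33.2 CPM after PBS. The groups were apart, but Hypoxia_DEX-2 stood over 5-fold above the other DEX livers (log2 difference -3.40, SE 0.98, edgeR adjusted p = 0.112). Cxcl10, an interferon-induced chemokine named in the same way, was at 8.74, 50.7 and 6.49 CPM and 36.8, 581 and 363 CPM. Here Hypoxia_DEX-2 exceeded Hypoxia_PBS-1, so the groups overlapped (log2 difference -3.94, SE 1.43, edgeR adjusted p = 0.177). The call for Cxcl16 ended without DEX-1, DEX-3, PBS-2 or PBS-3 or with the pair summed (adjusted p from 0.00011 to 0.11). For Cxcl12, the call did not hold without DEX-1, DEX-3 or PBS-3 or with the pair summed (adjusted p from 0.000765 to 0.121).

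Of 29 interferon-stimulated genes Usp18 alone passed, and it rose, against a list median of -0.25. None fell by edgeR, beside 5 lower at an unadjusted p under 0.05 and 2 with DESeq2. The count was the same with the pair summed, and with Hypoxia_DEX-2 and Hypoxia_PBS-1 left out 17 fell. Usp18, which removes the ubiquitin-like ISG15 and damps interferon receptor signalling, was at 21.0, 22.4 and 17.3 CPM after DEX and 6.62, 8.32 and 7.46 CPM after PBS. It was more than 2-fold higher in every DEX liver than in any PBS liver (log2 change 1.42, SE 0.14, edgeR adjusted p = 0.00151). Of 18 immediate early genes, Junb and Nr4a1 fell and none rose by edgeR, beside 2 higher at an unadjusted p under 0.05 and 1 with DESeq2. Junb, an AP-1 subunit, was at 202, 233 and 198 CPM and 311, 339.9 and 279 CPM (log2 change -0.57, SE 0.11, edgeR adjusted p = 0.0151). Nr4a1 fell by 1.44 (edgeR adjusted p = 0.0298). With the pair summed no immediate early gene fell, and with the other 2 libraries left out 13 fell and 1 rose. Of 24 anti-inflammatory effectors 1 rose and 1 fell, against 0 and 1 with the pair summed and 1 and 10 with the other 2 libraries left out. The mRNA decay factor gene Zfp36l2 rose by 1.25 and the phosphatase gene Dusp10 fell by 1.59 (edgeR adjusted p = 0.0343 and 0.00784). Dusp10 was low throughout, at 0.659, 0.526 and 0.532 CPM after DEX and 1.76, 1.81 and 1.60 CPM after PBS. It thus passed the filter of 1 CPM only through the PBS livers, where it was high, and its call is not independent of that filter. Junb no longer passed without DEX-1 or DEX-3 or with the pair summed or all 12 libraries fitted (adjusted p from 1.88e-05 to 0.104). Nr4a1 lost the call without DEX-1, DEX-3 or PBS-2 or with the pair summed (adjusted p from 0.000382 to 0.136 across the alternatives). The call for Zfp36l2 ended without DEX-1, DEX-2, DEX-3, PBS-2 or the count filter or with the pair summed (adjusted p from 5.36e-06 to 0.148). For Dusp10, the call did not hold without DEX-3 (adjusted p from 0.00136 to 0.0527).

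Markers of immune and vascular cells were set beside these falls. In bulk liver, fewer cells of a type and less RNA per cell cannot be told apart. None of 17 Kupffer cell markers (the resident macrophages of the liver) passed by edgeR, beside 2 higher and 2 lower at an unadjusted p under 0.05 and 1 lower with DESeq2. Their summed level was 481 to 525 CPM after DEX and 475 to 508 CPM after PBS, and these ranges overlapped. Of 8 neutrophil markers tested 1 was lower, the receptor gene Csf3r (edgeR adjusted p = 0.0481), and 7 were not called. Their median log2 fold change was -1.07, with 7 negative and 1 positive. The 13 markers summed to 25.2, 53.3 and 23.6 CPM after DEX and 30.8, 111 and 48.6 CPM after PBS, so the groups overlapped. With Hypoxia_DEX-2 and Hypoxia_PBS-1 left out, 4 neutrophil markers were lower, and of the Kupffer cell markers 1 was higher and 3 were lower. The part of neutrophils in the falls of Il1b, Tnf and the chemokines was not tested. Csf3r no longer passed without DEX-1, DEX-2, DEX-3, PBS-2 or PBS-3 or with the pair summed (adjusted p from 0.00134 to 0.183). Lymphocyte markers were near the limit of detection, with 2 of 16 tested and sums of 7.56 to 12.3 CPM in all 6 libraries, and none passed by edgeR, at an unadjusted p under 0.05 or with DESeq2. No stellate cell marker of 14 passed by edgeR or DESeq2, beside 4 higher at an unadjusted p under 0.05, with sums of 561 to 587 CPM after DEX and 477 to 577 CPM after PBS.

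Endothelial markers summed to 583 to 600 CPM after DEX and 573 to 588 CPM after PBS. Of 15 tested 1 rose and 2 fell, beside 4.99% and 4.73% of all genes tested. The numbers were 1 and 1 with the pair summed and 3 and 3 without both doubted libraries. Lyve1, a hyaluronan receptor of sinusoidal endothelium, was at 55.4, 51.8 and 51.5 CPM in the DEX livers and 20.8, 24.0 and 26.8 CPM in the PBS livers. It was about 2-fold higher in each DEX liver (log2 change 1.13, SE 0.10, edgeR adjusted p = 0.00107). Egfl7, an endothelial secreted factor, fell from 19.2 ± 1.89 to 11.4 ± 0.367 CPM, and Kdr, the main receptor for VEGF, from 45.5 ± 5.91 to 32.4 ± 1.21 CPM (edgeR adjusted p = 0.00417 and 0.0169). Among 5 cholangiocyte markers tested, 2 fell, among them the transcription factor gene Sox9 by 1.68 (edgeR adjusted p = 0.0235), while 3 were not called, and the 10 markers summed to 29.9 to 44.7 CPM after DEX and 39.1 to 55.7 CPM after PBS. Kdr lost the call without DEX-1 or DEX-3 or with the pair summed (adjusted p from 0.000279 to 0.0902 across the alternatives). The call for Sox9 ended without DEX-1, DEX-2, DEX-3, PBS-2, PBS-3 or the count filter or with the pair summed (adjusted p from 2.68e-06 to 0.105).

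**Figure D4:**
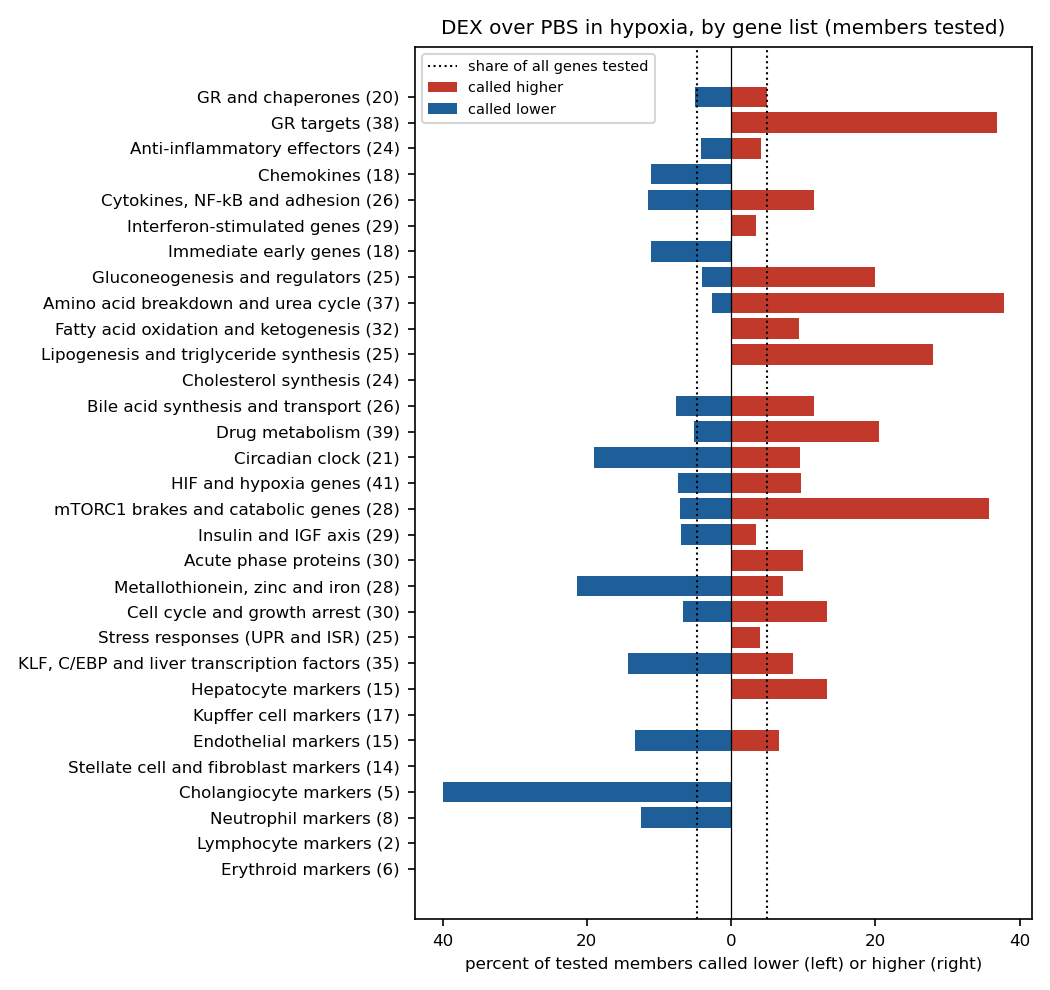
Percent of the tested members of each of the 31 gene lists (number tested in parentheses) that were called higher (red, right) or lower (blue, left) after DEX in hypoxic liver. Dotted lines mark the share of all 12183 genes called higher (4.99%) and lower (4.73%). Receptor targets and amino acid breakdown had 14 of 38 and 14 of 37 members higher. The joint list of mTORC1 brakes and catabolic genes had 10 of 28 higher, and lipogenesis 7 of 25. Cholesterol synthesis had none called.

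Of 41 HIF and hypoxia genes 4 were higher (Bnip3, Epas1, Egln2 and Hif3a) and 3 lower (Vegfa, Egln3 and Hmox1), at a list median of 0.0029. Among all genes tested, 4.99% were higher and 4.73% lower. No member passed by edgeR with the pair summed, and without both doubted libraries 10 rose and 8 fell. Vegfa, which encodes the main growth factor for blood vessels, was at 144, 173 and 148 CPM in the DEX livers and 196, 245 and 246 CPM in the PBS livers. It was lower in every DEX liver (log2 change -0.58, SE 0.12, edgeR adjusted p = 0.0236). Egln3, a prolyl hydroxylase that marks HIF for removal, was at 9.64, 14.4 and 9.63 CPM and 21.2, 35.5 and 35.3 CPM (log2 change -1.48, SE 0.26, edgeR adjusted p = 0.0199). In the other direction, Epas1, which encodes HIF-2 alpha, rose from 165 ± 11.4 to 226 ± 0.313 CPM, and Bnip3, a mitophagy receptor, from 299.6 ± 29.7 to 437 ± 23.9 CPM (edgeR adjusted p = 0.0113 and 0.0107). For Vegfa, the call did not hold without DEX-1, DEX-3, PBS-2 or PBS-3 or with the pair summed (adjusted p from 5.09e-05 to 0.117). Egln3 no longer passed without DEX-1, DEX-3, PBS-2, PBS-3 or the count filter or with the pair summed (adjusted p from 2.89e-07 to 0.0912). Epas1 lost the call without DEX-1 or DEX-3 or with the pair summed (adjusted p from 9.26e-05 to 0.0668 across the alternatives). The call for Bnip3 ended without DEX-1, DEX-3 or PBS-3 or with the pair summed (adjusted p from 3.7e-05 to 0.0676). For Egln2, the call did not hold without DEX-1, DEX-2 or PBS-3 or with the pair summed (adjusted p from 0.00135 to 0.096).

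Clock genes included 2 of 21 that rose and 4 that fell, beside 4.99% and 4.73% of all genes tested. The numbers were 1 and 2 with the pair summed and 5 and 4 without both doubted libraries. Ciart (ENSMUSG00000038550, chromosome 3, 95878503 to 95882251), a repressor of the CLOCK and BMAL1 pair, was at 17.7, 16.8 and 17.8 CPM in the DEX livers and 3.63, 1.59 and 1.33 CPM in the PBS livers. It reached the same level in each DEX liver (log2 change 2.94, SE 0.31, edgeR adjusted p = 0.00269). Arntl, which encodes BMAL1, fell from 20.6 ± 3.17 to 11.6 ± 0.528 CPM and Nr1d1, which encodes REV-ERB alpha, from 22.2 ± 6.37 to 8.79 ± 0.847 CPM (edgeR adjusted p = 0.00634 and 0.00707). The core genes Npas2 and Cry1 fell by 1.52 and 0.47, and Csnk1d, a kinase of the clock's repressors, rose by 0.41 (edgeR adjusted p = 0.03, 0.0391 and 0.0205). The promoter of Ciart is shown for its E-boxes, the element CACGTG that CLOCK and BMAL1 bind. The RefSeq window chr3:95882179-95882478, on the minus strand of GRCm38.p6, holds 3 of them in capitals, at bases 135 to 140, 193 to 198 and 207 to 212, and 7.15% of all windows hold at least 1. Of the named genes with a window, 7 of 51 that rose, 1 of 30 that fell and 7 of 47 not called hold one in any of their windows. These are counts by gene and not by window, with no share by gene over all genes beside them. Csnk1d no longer passed without DEX-1, DEX-2, DEX-3 or PBS-3 or with the pair summed (adjusted p from 0.00234 to 0.0891).
Ciart: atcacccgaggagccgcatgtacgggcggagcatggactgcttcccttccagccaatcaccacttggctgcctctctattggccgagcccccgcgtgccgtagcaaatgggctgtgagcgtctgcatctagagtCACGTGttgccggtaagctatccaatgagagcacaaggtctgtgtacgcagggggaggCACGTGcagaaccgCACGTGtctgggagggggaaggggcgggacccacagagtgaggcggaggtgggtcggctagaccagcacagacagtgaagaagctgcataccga

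Of 30 cell cycle and growth arrest genes 4 rose, Cdkn1a, Ccng2, Trp53inp1 and Plk3, and 2 fell. With the pair summed 3 passed, all of them rises, and without both doubted libraries 5 rose and 5 fell. Ccng2, an atypical cyclin that restrains the cycle, was at 56.0, 61.9 and 51.4 CPM in the DEX livers and 18.9, 18.8 and 14.9 CPM in the PBS livers (log2 change 1.67, SE 0.12, edgeR adjusted p = 0.000535). Trp53inp1, a stress gene of the p53 pathway, was at 451, 600.5 and 460.1 CPM and 66.1, 135 and 79.0 CPM. Both genes were more than 2-fold higher in each DEX liver than in any PBS liver, and Trp53inp1 was highest in Hypoxia_DEX-2 (log2 change 2.41, SE 0.30, edgeR adjusted p = 0.00709). The genes for cyclin D2, Ccnd2, and for the kinase Plk2 fell by 1.26 and 1.44 (edgeR adjusted p = 0.0194 and 0.0318), and neither fall passed with the pair summed. Plk3 lost the call without DEX-1, DEX-3 or PBS-3 or with the pair summed (adjusted p from 1.41e-05 to 0.0847 across the alternatives).

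Of 35 genes for liver transcription factors 5 fell, among them Prox1, Nr2f6 and Cebpa, and 3 rose, Klf3, Klf15 and Hnf4a. With the pair summed 3 fell and 2 rose, and without both doubted libraries 11 fell and 8 rose. Prox1, a homeobox factor that restrains metabolic genes, was at 107, 86.9 and 107 CPM after DEX and 245, 175 and 242 CPM after PBS (log2 change -1.16, SE 0.14, edgeR adjusted p = 0.00348). Each DEX liver was well under each PBS liver. Nr2f6 fell by 0.59 (edgeR adjusted p = 0.00269), and Klf3, a transcriptional repressor, rose by 0.92 ± 0.099 (SE, edgeR adjusted p = 0.00202). In metal and iron handling 6 of 28 fell and 2 rose, Slc39a14 and Hamp2. Summing the pair left 1 lower and 1 higher, and 13 fell and 6 rose without both doubted libraries. Slc39a14, a zinc and iron importer, rose from 679 ± 119.7 to 1326 ± 63.2 CPM, while the zinc exporter Slc30a1 fell from 40.02 ± 6.13 to 24.8 ± 0.464 CPM (edgeR adjusted p = 0.0055 and 0.00812). The SMAD inhibitor gene Smad6 fell by 0.95 (edgeR adjusted p = 0.0086). Hamp, which encodes the iron hormone hepcidin, was at 976, 943 and 1007 CPM and 1162, 889.9 and 868 CPM, with overlapping groups (log2 difference -0.016, SE 0.11, edgeR adjusted p = 0.946). The call for Slc30a1 ended without DEX-1 or DEX-3 or with the pair summed (adjusted p from 3.08e-06 to 0.0523).

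The response was then set beside that in normoxia, in 1 fit of all 12 libraries over 12801 genes. The 2 responses share no libraries. Most genes that passed in hypoxia passed in the same direction in normoxia, and where the responses differed, the one in hypoxia was mostly the smaller. By edgeR's test in that fit 966 genes were higher in hypoxia (7.55%) and 1207 in normoxia (9.43%), with 582 higher in both, which is 60.2% of the first and 48.2% of the second. Lower were 883 (6.9%) and 1065 (8.32%), with 465 shared, which is 52.7% and 43.7%. Of the genes higher in hypoxia 7 were lower in normoxia, and of those lower in hypoxia 10 were higher in normoxia. The difference of the responses, hypoxia minus normoxia, passed for 174 genes (1.36%), positive for 54 (0.422%) and negative for 120 (0.937%). Of the 120 negative ones, 57 rose in normoxia and were not called in hypoxia, 40 rose in both, 13 fell only by the call in hypoxia, and 10 rose in normoxia and fell in hypoxia. Of the 54 positive ones, 31 fell in normoxia and were not called in hypoxia, 9 rose with a call in hypoxia alone, 7 rose in hypoxia and fell in normoxia, 6 fell in both, and 1, Midn, rose in both. With Hypoxia_DEX-1 and -3 summed the counts were 20 and 50, and with Hypoxia_DEX-2 and Hypoxia_PBS-1 left out 160 and 317.

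Ddit4 rose in both, but from different starting levels. In normoxia it was at 135, 167 and 194 CPM after DEX and 4.13, 3.798 and 4.68 CPM after PBS, so the PBS level was lower and the DEX level higher than in hypoxia. The log2 fold changes were 5.30 in normoxia and 2.90 in hypoxia, and their difference was -2.40 (SE 0.36, edgeR adjusted p = 0.012). Sgk1 was at 112, 135 and 139 CPM and 30.5, 45.8 and 54.3 CPM in normoxia, with all DEX livers far above all PBS livers. Its response was 1.56 there (edgeR adjusted p = 9.1e-05) against -0.0006 in hypoxia, a difference of -1.56 (SE 0.25, edgeR adjusted p = 0.012). Both differences passed in every alternative run. Thrsp, the lipogenic regulator, was at 1067, 1122 and 1191 CPM and 63.1, 113 and 151 CPM in normoxia, reaching about the same DEX level as in hypoxia from a much lower PBS level (difference -1.998, SE 0.34, edgeR adjusted p = 0.0206). Rgs16, a regulator of G protein signalling, was at 64.7, 117 and 81.1 CPM and 11.4, 10.6 and 12.3 CPM, far under its hypoxic levels of 362, 290.0 and 347 CPM and 219, 146 and 149.97 CPM (difference -1.99, SE 0.31, edgeR adjusted p = 0.0127). Thrsp lost the call with the pair summed, without both doubted libraries, without the count filter, and without Hypoxia_DEX-1, -2 or -3, Hypoxia_PBS-2, Normoxia_DEX-2 or -3, or Normoxia_PBS-2 (adjusted p from 1.08e-07 to 0.0689 across the alternatives).

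Genes with positive differences included early response genes and inhibitors that passed as lower in normoxia and not in hypoxia. Klf10, an early transcription factor gene, was at 47.1, 49.2 and 54.7 CPM after DEX and 65.8, 54.6 and 55.0 CPM after PBS in hypoxia, and at 6.64, 10.2 and 13.6 CPM and 55.5, 42.0 and 42.5 CPM in normoxia. Only the normoxic DEX livers were low (difference 1.99, SE 0.28, edgeR adjusted p = 0.00792). Egr1 and Socs3, chosen after their values were seen, had the same form. Egr1 was at 74.8, 85.3 and 71.6 CPM and 64.6, 71.8 and 49.7 CPM in hypoxia, and at 26.2, 30.4 and 31.3 CPM and 58.0, 86.4 and 64.3 CPM in normoxia (difference 1.56, SE 0.23, edgeR adjusted p = 0.00731). Socs3, a feedback inhibitor of cytokine receptors, had a difference of 1.57 (SE 0.31, edgeR adjusted p = 0.0402). Irs2, the main hepatic adaptor of the insulin receptor, moved in opposite directions. It was at 289, 335 and 303 CPM and 218, 231 and 201 CPM in hypoxia and at 56.5, 36.8 and 49.3 CPM and 63.7, 86.8 and 109 CPM in normoxia, where the groups were apart as well. The response was 0.51 in hypoxia (edgeR adjusted p = 0.091 in the joint fit and 0.0164 with the 6 hypoxic libraries alone) and -0.87 in normoxia (edgeR adjusted p = 0.00774), and the difference was 1.38 (SE 0.26, edgeR adjusted p = 0.0342). This difference was lost without the count filter, with the pair summed, without any 1 of the 6 hypoxic libraries, without both Hypoxia_DEX-2 and Hypoxia_PBS-1, and without Normoxia_DEX-2, Normoxia_DEX-3 or Normoxia_PBS-2 (adjusted p from 5.56e-05 to 0.094 across the alternatives).

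Plk3, a stress-activated kinase gene, rose in hypoxia and fell in normoxia. It was at 177, 144 and 191 CPM and 71.1, 106 and 92.4 CPM in hypoxia and 41.7, 36.9 and 37.5 CPM and 85.7, 57.9 and 68.7 CPM in normoxia, a difference of 1.80 (SE 0.24, edgeR adjusted p = 0.00405) that passed in every alternative run. Fbf1, a centriole gene, had the largest positive difference, 4.01 (SE 0.67, edgeR adjusted p = 0.0302). It was at 79.1, 97.9 and 90.7 CPM and 12.8, 19.7 and 16.8 CPM in hypoxia and 20.6, 8.64 and 25.8 CPM and 75.1, 24.8 and 62.4 CPM in normoxia. The difference for Fbf1 was lost with Hypoxia_DEX-1 and -3 summed, without any 1 of the 6 hypoxic libraries, without both Hypoxia_DEX-2 and Hypoxia_PBS-1, and without Normoxia_DEX-1, Normoxia_PBS-1 or Normoxia_PBS-3 (adjusted p from 8.46e-07 to 0.0798 across the alternatives). Pdk4 was at 13.4, 12.6 and 17.7 CPM and 55.3, 10.7 and 7.58 CPM in normoxia, where Normoxia_PBS-1 stood far above the others. The difference of 4.30 (SE 0.97) did not pass (edgeR adjusted p = 0.0864).

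Drug metabolism genes had smaller responses in hypoxia where the difference passed, which was so for 4 of 40 tested, among them Fmo5, Cyp3a11 and Ahr. Ahr, the receptor for aromatic hydrocarbons, had responses of -0.040 in hypoxia and 1.32 in normoxia (difference -1.36, SE 0.16, edgeR adjusted p = 0.00136). Fmo5 had 0.80 and 2.08 (difference -1.29, SE 0.18, edgeR adjusted p = 0.00325). Acacb, the acetyl-CoA carboxylase gene of the lipogenesis list, went the other way, with 1.08 in hypoxia and -0.064 in normoxia (difference 1.14, SE 0.12, edgeR adjusted p = 0.000827). The endothelial gene Lyve1 had a difference of -1.23 (SE 0.16, edgeR adjusted p = 0.00237). Of 21 clock genes the difference passed for Hlf, Clock and Bhlhe40. Bhlhe40, a repressor in the clock, had -0.032 in hypoxia and -1.31 in normoxia (difference 1.28, SE 0.21, edgeR adjusted p = 0.0127).

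Receptor targets had list medians of 0.68 in hypoxia and 0.67 in normoxia in the joint fit, with 16 and 21 of 38 higher and 0 and 2 lower. The difference passed for 4 of them, Ddit4, Sgk1, Irs2 and Gadd45g, a growth arrest gene with responses of 0.19 in hypoxia and 1.41 in normoxia (difference -1.22, SE 0.17, edgeR adjusted p = 0.00331). Fkbp5 reached the same level with DEX, 522, 573 and 516 CPM in normoxia, but its normoxic PBS level was lower, 110.5, 59.3 and 127 CPM. Its difference of -1.32 (SE 0.35) did not pass (edgeR adjusted p = 0.119), nor did those of Tsc22d3, Cdkn1a and Dusp1, at -1.15, -1.46 and -1.41 (edgeR adjusted p = 0.0699, 0.0709 and 0.0943). All 4 passed with DESeq2, and Tsc22d3, Cdkn1a and Dusp1 also when 1 library was left out: Hypoxia_PBS-3 for Tsc22d3, Hypoxia_PBS-3 or Normoxia_PBS-1 for Cdkn1a, and Normoxia_DEX-1 or Normoxia_PBS-3 for Dusp1 (adjusted p from 0.00402 to 0.301, 0.00176 to 0.193, 0.000461 to 0.18 and 0.00206 to 0.236 across the alternatives). Tat and Pck1 had differences of 0.44 and 0.44 (SE 0.37 and 0.30, edgeR adjusted p = 0.69 and 0.59). Immediate early genes had medians of -0.45 in hypoxia and -1.005 in normoxia, with 3 and 10 of 18 lower.

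**Figure D5:**
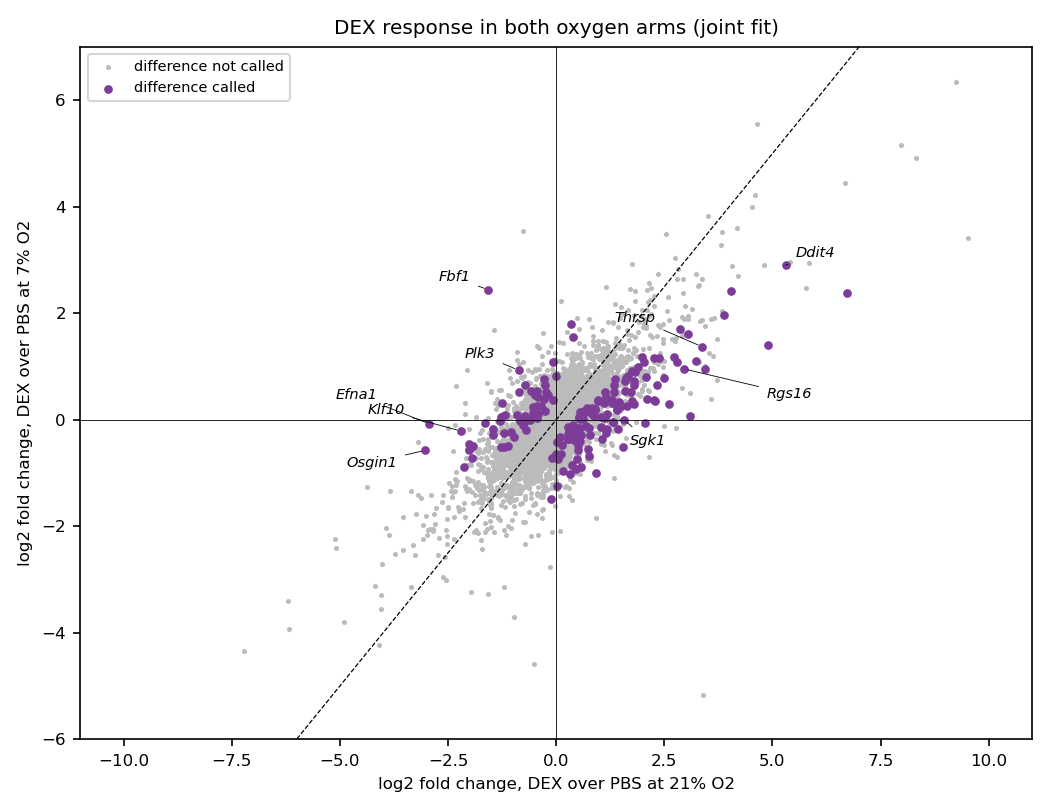
Log2 fold change of DEX over PBS at 21% O2 (x axis) and at 7% O2 (y axis) from the fit of all 12 libraries, with 1 point for each of 12801 genes. Purple points are the 174 genes whose difference between the responses passed, and the dashed line marks equal responses. Most purple points on the right lie under the line, where the rise in hypoxia was the smaller, and Fbf1 and Plk3 lie in the corner with a rise in hypoxia and a fall in normoxia.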

How the data were processed

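Total RNA of liver was extracted with the Aurum kit (Biorad) and made into stranded mRNA libraries with the TruSeq kit, per the labels' protocols. The authors deposited 1 table of raw counts per gene for all 12 libraries, with 54838 identifiers, of which 54723 have a symbol. Trimmomatic, HISAT2 2.0.4, SAMtools, featureCounts, DESeq2 and the build mm10 are named, per the submitters' processing notes. The sources used here give neither the annotation used for counting nor its strand setting, so reads of overlapping or near-identical genes may be split or shared.

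Groups came from the sample labels. Genes with at least 1 CPM in at least 3 of the 6 hypoxic libraries were kept (12183), scaled by TMM and tested with edgeR 4.0.16 (R 4.3.3, robust quasi-likelihood fit, 4 residual degrees of freedom), with Benjamini-Hochberg adjustment at 0.05. A fit of all 12 libraries (12801 genes, 8 residual degrees of freedom) gave the responses side by side and their difference. Printed CPM use TMM sizes over the 12 libraries, and the standard error is the log2 fold change divided by the square root of F. Depth was 12464687 to 24715995 counts per library. DESeq2 1.42.0 was an alternative. The scripts were tested on simulated data.

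Named were, among called genes, the 12 largest rises and 12 largest falls at 5 CPM or more in 1 group with groups that do not overlap, up to 4 members of each of 31 lists by adjusted p, 26 fixed genes, and the 6 largest differences in each direction. Other list members named were chosen after their values were seen: Sds, Slc38a2, Nags, Ass1, Asl, Klf15, Sesn3, Arrdc4, Cyp2b9, Cyp2c38, Klb, Npas2, Cry1, Ccnd2, Plk2, Gcgr, Hamp2, Hif3a, Hmox1, Cebpa, Ccl2, Cxcl10, Egr1, Socs3, Gadd45g, Ahr, Cyp3a11, Hlf, Clock, Bhlhe40 and Midn. The comparison and the lists were chosen with earlier results of these data known. Promoters are from RefSeq's table for GRCm38.p6, and 128 of 162 named genes had a window. Gene positions follow GENCODE M21.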

Additional observations from a re-analysis of the deposited data

Results flagged for a closer look

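The DEX response differed between hypoxia and normoxia, by the test of the difference itself in the fit of all 12 libraries, in 12 genes named by a fixed rule. All values are log2, hypoxia minus normoxia. Positive differences were found for Fbf1 at 4.01, Efna1 at 2.86, Osgin1 at 2.45, Klf10 at 1.99, Plk3 at 1.80 and Mnt at 1.57. The edgeR adjusted p were 0.0302, 0.0374, 0.0206, 0.00792, 0.00405 and 0.00136. Efna1, an ephrin ligand of endothelium, had a response of -0.078 in hypoxia and -2.94 in normoxia. Osgin1, an oxidative stress gene, had -0.57 and -3.02, and Mnt, a MYC antagonist, had -0.069 and -1.64.

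Negative differences were found for Treh at -2.49, Ddit4 at -2.40, Fam89a at -2.32, Tcim at -2.13, Thrsp at -1.998 and Rgs16 at -1.99. The edgeR adjusted p were 0.042, 0.012, 0.0202, 0.0034, 0.0206 and 0.0127. Treh, which splits trehalose, rose by 0.95 in hypoxia and 3.44 in normoxia in this fit, and Tcim, a regulator of Wnt signalling, by 1.11 and 3.24. Fam89a had 0.30 and 2.62.

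The differences of Klf10, Plk3, Mnt, Ddit4, Tcim and Rgs16 passed in every alternative run. That of Treh was lost without any 1 of the 12 libraries other than Hypoxia_DEX-2. That of Efna1 was lost without any 1 of the 6 hypoxic libraries, Normoxia_DEX-1, Normoxia_PBS-1 or Normoxia_PBS-2. That of Osgin1 was lost without Hypoxia_DEX-1, Hypoxia_DEX-3, Normoxia_PBS-1 or Normoxia_PBS-2, and that of Fam89a without these libraries, Normoxia_DEX-2 or Normoxia_DEX-3. Values for Fbf1 and Thrsp are given with the results.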

How the results depend on the processing

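Of the 162 named genes 99 were called in hypoxia. Of these, 53 kept the call in all alternatives, 46 lost it in at least 1 and none changed direction, and 45 lost it when 1 library was left out. Scaling by RLE size factors or filtering with filterByExpr kept each count within 1.5 times. For DEX against PBS in hypoxia, against 608 higher and 576 lower, the counts were 275 and 175 with Hypoxia_DEX-1 and -3 summed, 1358 and 1736 with Hypoxia_DEX-2 and Hypoxia_PBS-1 both left out, 948 and 910 with all 12 libraries in the fit, and 265 to 936 and 160 to 1056 with 1 library left out. For the difference of the responses, against 54 positive and 120 negative, they were 20 and 50 with the pair summed, 160 and 317 with both libraries left out, 121 and 255 with DESeq2, 85 and 175 without the count filter, and 18 to 93 and 47 to 205 with 1 library left out. The fewest came without Hypoxia_DEX-3 and the most without Hypoxia_PBS-1. The numbers also moved by over 1.5 times without Hypoxia_DEX-1 (20 and 50), Hypoxia_PBS-3 (33 and 74), Normoxia_DEX-2 (23 and 58), Normoxia_DEX-3 (31 and 59), Normoxia_PBS-1 (30 and 71) and Normoxia_PBS-2 (26 and 65). The cause was not tested, other than that the summed pair and the left-out libraries leave fewer samples.

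With the replicate numbers of the labels as a block (replicate block), 789 higher and 907 lower genes were called in hypoxia, and the difference passed for 56 and 105. Deviations of same-numbered DEX and PBS livers correlated at 0.38, 0.46 and -0.13, and Hypoxia_DEX-3 correlated best with Hypoxia_PBS-1 (0.39). These values cannot show whether the numbers pair the samples. Hypoxia_DEX-1 and -3 were nearly the same, and the deviations of 3 libraries from their mean depend on each other.

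With 3 libraries a group, a gene that did not pass is not shown to be unchanged. Genes under about 1 CPM were not tested.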

Other observations

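The lists not described above held few calls with all 6 libraries, where 9.72% of all genes tested were called. They held more with Hypoxia_DEX-2 and Hypoxia_PBS-1 left out, as did all genes tested (1358 higher and 1736 lower). Of 25 genes of the unfolded protein and integrated stress responses 1 rose, Herpud1, which serves the disposal of misfolded proteins of the endoplasmic reticulum, and none fell by edgeR or DESeq2 with all 6 libraries, beside 2 lower at an unadjusted p under 0.05. With those 2 libraries left out 4 rose and 5 fell. Of 29 genes of the insulin and IGF axis Irs2 rose, and Igfals, which stabilises circulating IGF, and Inhbe, an activin subunit, had log2 fold changes of -0.81 and -1.35 (adjusted p by edgeR of 0.0208 and 0.0415), both falls. None of the 3 passed with Hypoxia_DEX-1 and -3 summed, and 3 rose and 4 fell with the other 2 libraries left out. Igfals also lost the call without DEX-1, DEX-3, PBS-2 or PBS-3 (adjusted p from 2.28e-05 to 0.0895 across the alternatives). Inhbe lost it without any 1 library other than PBS-2, without both DEX-2 and PBS-1, without the count filter, with the replicate block and with all 12 libraries in the fit (adjusted p from 4.55e-06 to 0.212). Of 30 acute phase genes Lcn2, Orm3 and Serpina3m rose and none fell by edgeR with all 6 libraries, beside 1 lower at an unadjusted p under 0.05 and 1 with DESeq2. With the pair summed 2 rose, and with Hypoxia_DEX-2 and Hypoxia_PBS-1 left out 4 rose and 12 fell. The call for Orm3 ended with all 12 libraries in the fit (adjusted p = 0.0645). Orm3 and Serpina3m belong to families of close copies, so their reads may be shared.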
